A study of Rattus norvegicus with 18 samples.

Results

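The genes described here write, erase and read DNA methylation. They are the DNA methyltransferases Dnmt1, Dnmt3a and Dnmt3b, the dioxygenases Tet1, Tet2 and Tet3, and the methyl-CpG readers Mbd1, Mbd2 and Uhrf1. The 9 genes were chosen by name for their function and not by their expression, out of 38445 genes counted. All 9 were among the 17853 genes that passed the filter on low counts (a level above 0.5 CPM, counts scaled to the size of the library, in at least 1 rat).

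RNA was sequenced from the hippocampus of 18 adult male Sprague Dawley/WT rats, 6 per group, and the study names its dorsal part as the piece dissected. All rats were fed a Lieber-DeCarli liquid diet. Control rats (C) received the diet without ethanol for 16 days. Ethanol rats (E) received 9% v/v ethanol for 16 days and were not withdrawn. Withdrawal rats (W) received 9% ethanol for 15 days and were then returned to control diet for 24 h. The study describes a gradual introduction of ethanol at lower doses before the 9% diet. Each library came from the bulk tissue of 1 animal, so fewer cells of a type and less RNA per cell cannot be told apart. The comparisons ask whether the transcripts of this machinery differed during chronic ethanol or during withdrawal.

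In vertebrate genomes methyl groups are placed mostly on cytosines of CpG sites. Dnmt3a and Dnmt3b place new marks, Dnmt1 copies them to the daughter strand after replication with the help of Uhrf1, and TET enzymes oxidise the mark as a step toward its removal. Mbd1 and Mbd2 bind methylated CpG and recruit repressive complexes. Adult neurons no longer divide, yet they keep both methyltransferases and TET enzymes, which have been studied in memory and in responses to drugs of abuse.

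In the deposited coordinates of Rnor_6.0, Dnmt1 lies at chr8:21922515-21968495 (minus strand), Dnmt3a at chr6:28205375-28346052 and Dnmt3b at chr3:149131541-149170061 (both plus). Tet1 lies at chr20:27359122-27438039 (plus), Tet2 at chr2:238719389-238802975 and Tet3 at chr4:115060702-115160800 (both minus). Mbd1 lies at chr18:70248568-70263190, Mbd2 at chr18:65814026-65885115 (both plus) and Uhrf1 at chr9:10738211-10758403 (minus). The counts cover the exons of each gene, between 1628 exonic bases for Mbd2 and 16817 for Tet3, and no exon of the 9 shares bases with an exon of another gene. RefSeq promoter windows of assembly GRCr8 (250 bases before to 50 after a start) were found for 8 of the 9 genes, without Dnmt3b.

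Dnmt1 and Uhrf1, which act together at the replication fork, are the members with a promoter window that holds the E2F letters TTTCGCGC on either strand. Of 33469 rat promoter windows, 0.326% hold them. Uhrf1 has several windows, and not all of them hold the letters. E2F factors drive genes of the S phase. The matches are shown for comparison with the levels of this pair below, with the matched letters in capitals, 5′ to 3′ on the strand of the gene. In Dnmt1 they are the reverse complement and begin 26 bases after the start, at GRCr8 chr8:27762798-27762827 (minus strand), and in Uhrf1 they begin 99 bases before it, at chr9:1223076-1223105 (plus strand).
Dnmt1: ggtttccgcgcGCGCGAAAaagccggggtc
Uhrf1: cccgagtcgggTTTCGCGCgccctggcgtc
A match describes these letters and is not a measured binding site. Of more common letters, the GC box GGGCGG was present in 7 of the 8 genes (33.1% of all windows) and CCAAT in 5 (37.5%). A gene was counted if any of its windows matched, and Tet1, Tet3 and Uhrf1 have several windows. The count of genes is thus not the same measure as the share of windows.

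Each library held 30873228 to 42679748 counts on genes (median 36302755). Neuron markers were present in every library, with a summed level of Rbfox3, Snap25, Syt1 and Tubb3 between 3216 and 4195 CPM. Withdrawal rat 5 stood apart. Its summed dentate granule cell markers (77.7 CPM) and CA field pyramidal cell markers (105 CPM) were below those of the other 17 rats (119 to 203 and 228 to 428 CPM), and its choroid plexus (28.1 CPM), astrocyte (1896 CPM), microglia (113 CPM) and leukocyte markers (35.8 CPM) were also the lowest of the 18 rats. Ethanol rat 1 had the highest summed thalamus (324 CPM) and choroid plexus markers (5048 CPM). It was the highest rat for 12.6% and the lowest for 11.8% of all genes tested, Tet2 and Uhrf1 among the latter, and without it no member was called in any comparison. Withdrawal rat 1 held the highest level of 3 of the 9 genes. Library index sets followed the groups. All control rats carried set A, all ethanol rats and withdrawal rats 1 and 2 carried set B, and the other 4 withdrawal rats carried set C, so that control and set A cannot be told apart.

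Per length, the readers Mbd2 and Mbd1 were the highest of the 9 transcripts and Tet1 and Dnmt3b the lowest. The median over 18 rats was 24.1 CPM per kb of exon for Mbd2, which in its NuRD complex removes histone acetylation at methylated DNA, and 12.2 for Mbd1. Dnmt1 followed at 6.92 CPM per kb and Dnmt3a at 6.82. Dnmt1 was the higher of this pair in 8 of 18 rats, so their order did not exceed the spread between rats.

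Tet2 had a median of 5.43 CPM per kb, Tet3 of 3.63 and Uhrf1 of 1.85. Tet1 (0.655 CPM per kb) and Dnmt3b (0.619) were at the bottom, and Tet1 was the higher of them in 9 of 18 rats. Dnmt3a lay above Tet2 in 18 of 18 rats and Tet2 above Tet3 in 17 of 18, although the ranges of these neighbours overlapped. Among methyltransferase transcripts per length, Dnmt1 made up a median of 47.5%, Dnmt3a 48.2% and Dnmt3b 4.36%. Among TET transcripts, Tet2 made up 55.8%, Tet3 38.0% and Tet1 6.82%.

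**Figure D1:**
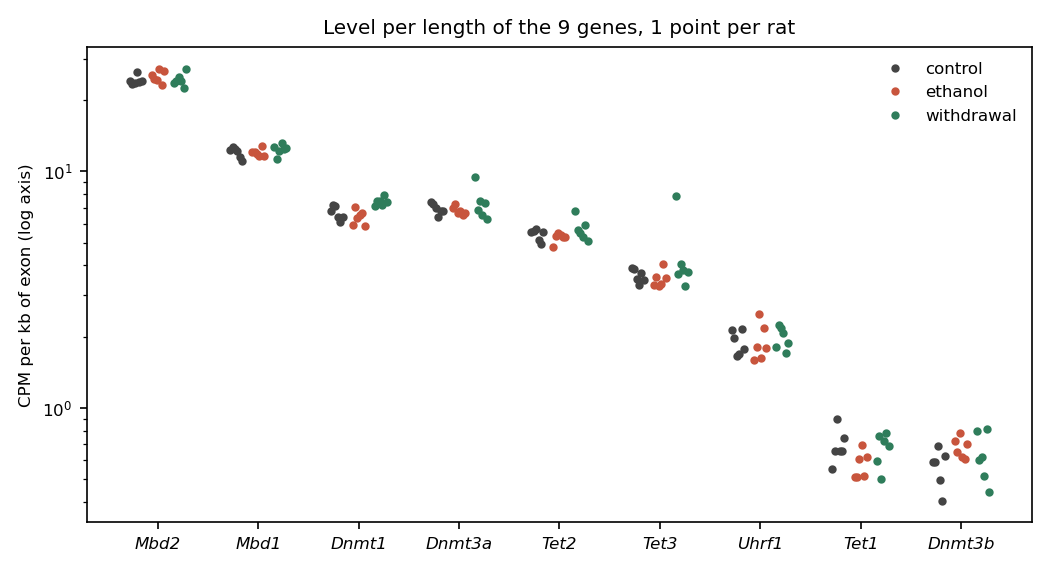
Level of the 9 genes per length (CPM per kb of exon, log axis) in control, ethanol and withdrawal rats, 1 point per rat. Mbd2 and Mbd1 lie above the other 7 genes in every rat, and Tet1 and Dnmt3b lie below them.

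None of the 9 genes was DE (q < 0.1 by limma-voom) in any comparison. Between withdrawal and control, 0 of 9 were called, beside 5.41% of all genes tested (2.85% higher and 2.55% lower), and q ran from 0.118 for Dnmt1 to 0.782. The fitted log2 fold change was above 0 for 8 of the 9, beside 50.1% of all genes. Its median was 0.055, and the median over all genes was 0.00030. Without regard to sign, the median was 0.074 for the 9 genes and 0.090 over all genes. At an unadjusted p under 0.05, 1 of 9 passed, beside 19.7% of all genes.

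Between ethanol and control, 0 of 9 were called, beside 0.493% of all genes. Fitted values were above 0 for 6 of them, beside 50.1% of all genes, with a median of 0.017. Dnmt3b and Tet1 had an unadjusted p under 0.05, beside 12.5% of all genes. Between withdrawal and ethanol, 0 of 9 were called, beside 2.72% of all genes. Here 7 values were above 0, beside 49.9% of all genes, with a median of 0.055. Dnmt1 alone had an unadjusted p under 0.05, beside 16.7% of all genes. The 3 comparisons share groups of rats, so their values are not independent. DESeq2 called Dnmt1 in both withdrawal comparisons and edgeR called none of the 9 in any comparison. In all, DESeq2 called 1624 genes between withdrawal and control and 1176 between withdrawal and ethanol, beside 965 and 486 by limma-voom.

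**Figure D2:**
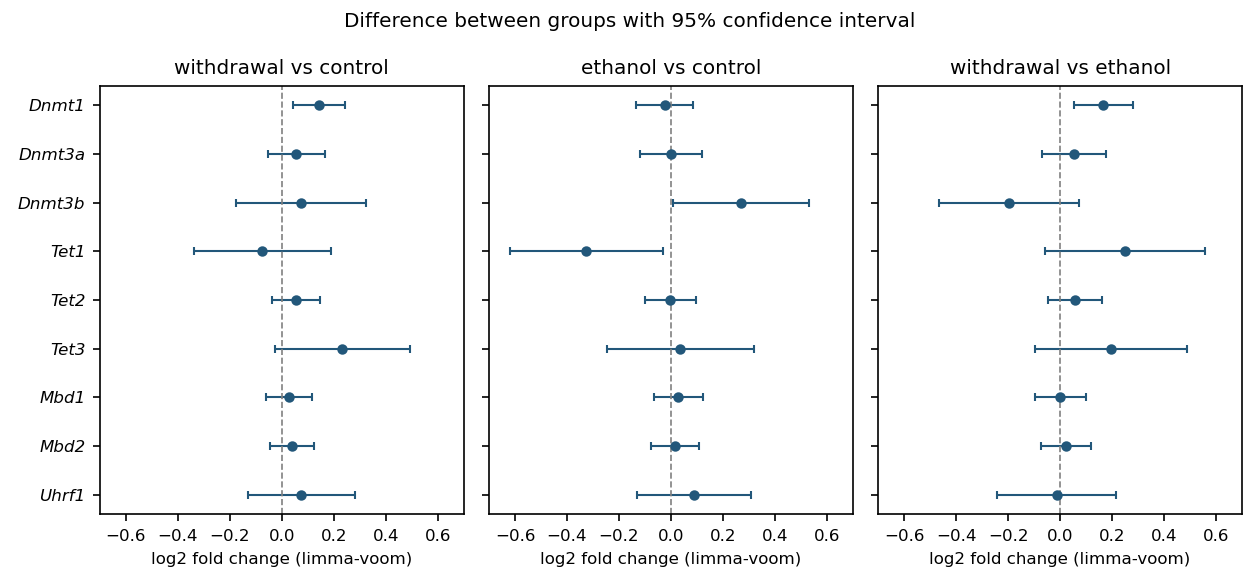
Fitted log2 fold change of each gene in the 3 comparisons (limma-voom, points) with its 95% confidence interval (bars). The intervals of Dnmt1 in both withdrawal comparisons and of Dnmt3b and Tet1 between ethanol and control lie to one side of 0, and the other intervals include 0.

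Dnmt1, the maintenance methyltransferase, had the smallest q of the 9 genes in both comparisons with withdrawal. Its level in control rats ran from 36.3 to 42.8 CPM (median 39.1), in ethanol rats from 34.9 to 41.8 CPM (median 38.0), and in withdrawal rats from 42.2 to 47.3 CPM (median 44.0). All 6 withdrawal rats lay above all 6 ethanol rats and above the mean of the controls, and 4 of them lay above every control rat. Groups did not overlap between withdrawal and ethanol for 1 of the 9 genes, Dnmt1, and for 1.22% of all genes (0.611% with withdrawal higher). No member's groups were apart between withdrawal and control (1.06% of all genes) or between ethanol and control (1.32%).

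Relative to control, Dnmt1 was 1.10-fold in withdrawal (95% confidence interval 1.03 to 1.18), a log2 fold change of 0.14 (SE 0.048, q = 0.118 by limma-voom). Relative to ethanol it was 1.12-fold (1.04 to 1.21), with q = 0.137 by limma-voom. Without surrogate variables, a two-sided exact permutation test of mean log2 CPM gave p = 0.0108 for withdrawal against control and p = 0.00216 against ethanol. These p-values are unadjusted, and the latter is the smallest that 6 rats against 6 allow. Adjusted over all 27 such tests, they were 0.146 and 0.0584. Ethanol rats differed from controls by -0.02 (SE 0.052, q = 0.900 by limma-voom).

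The call on Dnmt1 changed with single rats. Without withdrawal rat 1, q fell to 0.0617 against control and 0.0685 against ethanol, and without withdrawal rat 6 it was 0.372 and 0.488 (limma-voom). Without withdrawal rat 4, q was 0.0997 against control and 0.120 against ethanol (limma-voom). Without withdrawal rat 5, which had the highest Dnmt1 level, the log2 fold changes were 0.13 and 0.15. Within index set B, the 2 withdrawal rats had 42.2 and 44.3 CPM, and the ethanol rats 34.9 to 41.8 CPM. The 4 withdrawal rats of set C ran from 42.5 to 47.3 CPM.

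Dnmt1 is also a gene of dividing cells. The 8 markers of cycling cells were summed to 56.5 to 64.4 CPM in control, 55.4 to 72.4 CPM in ethanol and 61.7 to 78.3 CPM in withdrawal rats. Fitted values were above 0 for 7 of 8 between withdrawal and control and for 8 of 8 between withdrawal and ethanol. Of all genes, 50.1% and 49.9% were. None of the 8 was called and none was at 0 in any rat. Against control, Mki67, Cdk1 and Top2a had log2 fold changes of 0.0090, 0.051 and -0.16 (SE 0.41 to 0.45). Medians of these and of Tyms were lower in withdrawal than in control, those of Mcm2, Mcm5, Ccnb1 and Pcna higher. Pcna, with group means of 35.8 to 39.8 CPM, made up the largest part of the sums. Withdrawal rat 5, with the highest Dnmt1 level, had the lowest sum of its group. The lowest q was that of Pcna, the sliding clamp that brings Dnmt1 to replicating DNA (q = 0.119 against control and 0.113 against ethanol by limma-voom). Of the oligodendrocyte precursor markers, Olig2 and Pdgfra rose between withdrawal and control (q = 0.0240 and 0.0863 by limma-voom), and the summed level of the 3 markers was 149 to 178 CPM in control, 164 to 200.5 CPM in ethanol and 155 to 200 CPM in withdrawal rats. Olig2 also rose between withdrawal and ethanol (q = 0.0472 by limma-voom). Of the other cell type markers, the endothelial Pecam1 and Flt1, the astrocyte marker Gfap and the leukocyte marker Lyz2 rose between withdrawal and control, while the astrocyte marker Aldh1l1, the granule cell marker Prox1 and the blood genes Hbb, Hba-a1 and Alas2 fell (q from 0.0195 to 0.0968 by limma-voom). The blood genes were also lower in ethanol than in control, without overlap of the rats (3 of 3 called, median log2 fold change -1.59, q from 0.0562 to 0.0834 by limma-voom). The 3 granule cell markers all had values below 0 between withdrawal and control, whereas the endothelial Slco1a4 (log2 fold change -0.079) and the leukocyte markers Ptprc (-0.10) and Cd3e (-0.18) had values below 0 without passing the test. Gfap and Lyz2 were also higher in withdrawal than in ethanol (q = 0.0578 and 0.0850 by limma-voom). The part of these cells in the Dnmt1 values and in the other genes was not tested.

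Dnmt3a, a methyltransferase for new marks that is prominent in adult neurons, had 79.0 to 91.7 CPM in control (median 84.7), 80.1 to 89.6 in ethanol (median 82.6) and 77.5 to 117 in withdrawal rats (median 87.2). The groups overlapped, and the highest value belonged to withdrawal rat 1, since the other 5 withdrawal rats reached 92.3 CPM at most. Dnmt3a had a fitted difference from control of 0.055 on the log2 scale in withdrawal (SE 0.052, q = 0.594 by limma-voom), and of -0.0027 without that rat.

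Dnmt3b, its relative with major roles in the embryo, was scarce. It had 1.73 to 2.94 CPM in control (median 2.53), 2.61 to 3.35 in ethanol (median 2.89) and 1.89 to 3.47 in withdrawal rats (median 2.62). All 6 ethanol rats were above the control mean and 3 were above every control rat, while the withdrawal rats spanned nearly the whole range. Relative to control, the ethanol group had a log2 fold change of 0.27 (SE 0.12, q = 0.385 by limma-voom). The two-sided exact permutation test gave p = 0.0390, unadjusted, and 0.321 adjusted over the 27 tests. Dnmt3b rested on 63 to 129 counts per rat, and counting error alone gives a coefficient of variation of 9.85% to 11.0% at the levels of the 3 groups.

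The erasers did not differ between groups beyond the threshold. Tet1, a TET enzyme with a CXXC domain that binds unmethylated CpG, had 3.81 to 6.21 CPM in control (median 4.54), 3.52 to 4.79 in ethanol (median 3.88) and 3.47 to 5.43 in withdrawal rats (median 4.90). No ethanol rat reached the control mean and 3 were below every control rat, although the groups overlapped. Relative to control, the ethanol group had a log2 fold change of -0.33 (SE 0.14, q = 0.348 by limma-voom). The two-sided exact permutation test gave p = 0.0476, unadjusted, and 0.321 adjusted over the 27 tests. The withdrawal group differed by 0.25 from ethanol (SE 0.15, q = 0.409) and by -0.075 from control (SE 0.12, q = 0.782 by limma-voom).

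Tet2 lacks the CXXC domain. It ran from 45.8 to 53.1 CPM in control (median 51.4), from 44.4 to 50.7 in ethanol (median 49.3) and from 47.2 to 63.3 in withdrawal rats (median 51.8). The groups overlapped, and the withdrawal rats differed from controls by 0.055 on the log2 scale (SE 0.043, q = 0.513 by limma-voom).

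Tet3 had the largest fitted difference between withdrawal and control among the 9 genes and the least even group. Its level was 55.6 to 65.8 CPM in control (median 60.7), 55.0 to 68.0 in ethanol (median 57.8) and 54.9 to 132.5 in withdrawal rats (median 63.7). A single animal, withdrawal rat 1, stood at 132.5 CPM, and the other 5 withdrawal rats ran from 54.9 to 68.2 CPM, within or close to the range of the other groups. Tet3 differed from control by 0.23 on the log2 scale (SE 0.12, q = 0.308 by limma-voom), and without that rat it was 0.049 (q = 0.666).

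Withdrawal rat 1 lay above the mean of its group for several of the genes. It was the highest of 18 rats for Tet3, Dnmt3a and Tet2, as it was for 11.7% of all genes tested, while its Dnmt1 level was the lowest in the group. Without it, the withdrawal means were 62.6 CPM for Tet3, 84.9 for Dnmt3a and 51.0 for Tet2, beside control means of 61.1, 85.5 and 50.2 CPM. For Dnmt3b it had 3.42 CPM beside a mean of 2.56 in the other 5, and the log2 ratio of the withdrawal mean over control was 0.16 with it and 0.082 without it. The share of Tet3 among TET transcripts reached 51.5% in the withdrawal group and at most 41.1% in the ethanol group. Withdrawal rat 5, which stood apart in its granule cell, CA pyramidal cell, choroid plexus, astrocyte, microglia and leukocyte markers, had the lowest Tet3 and Mbd2 levels and the highest Dnmt1 and Dnmt3b levels of the 18 rats. It was the lowest rat for 12.5% and the highest for 14.3% of all genes tested.

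**Figure D3:**
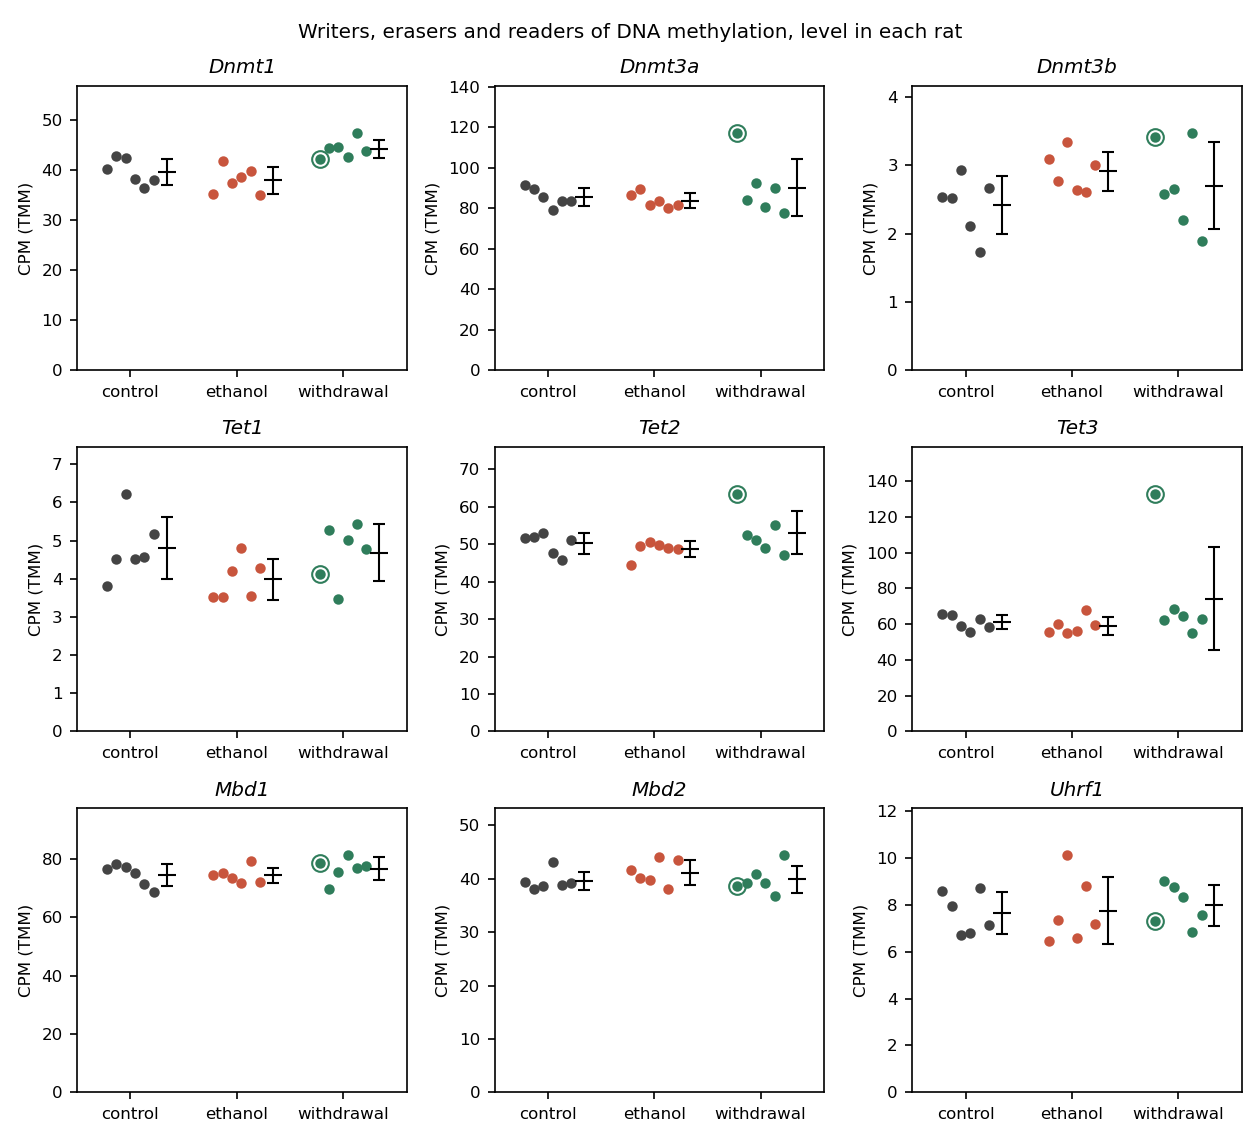
Level of each gene (CPM, TMM-normalized) in every rat of the control, ethanol and withdrawal groups, with the mean and SD (bar, n = 6) to the right of the points and withdrawal rat 1 circled. The 6 withdrawal rats lie above the 6 ethanol rats for Dnmt1, and withdrawal rat 1 stands above all others for Dnmt3a, Tet2 and Tet3.

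The readers Mbd1 and Mbd2 were even within groups, with a coefficient of variation of 3.65% to 6.41%, while Uhrf1 varied by 10.8% to 18.4%. Mbd1, which binds methylated CpG through its MBD domain, had 68.6 to 78.1 CPM in control (median 75.8), 71.6 to 79.1 in ethanol (median 74.1) and 69.7 to 81.2 in withdrawal rats (median 77.3). The groups overlapped, and fold changes lay between 1.00 and 1.02 in the 3 comparisons. The 95% interval between withdrawal and control ran from 4.01% lower to 8.44% higher.

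Mbd2 had 38.1 to 43.0 CPM in control (median 39.0), 38.0 to 44.1 in ethanol (median 40.8) and 36.8 to 44.3 in withdrawal rats (median 39.2). The groups overlapped here too, and the interval between withdrawal and control ran from 3.21% lower to 9.05% higher. Uhrf1, which recognises hemimethylated DNA after replication and recruits Dnmt1, had 6.71 to 8.70 CPM in control (median 7.55), 6.44 to 10.1 in ethanol (median 7.26) and 6.85 to 9.02 in withdrawal rats (median 7.96). In withdrawal its log2 fold change over control was 0.075 (SE 0.097, q = 0.711 by limma-voom).

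Across rats the 9 genes did not move as one. After subtraction of group means, the 36 pairs had a median Pearson r of 0.023, and 1 pair passed an adjusted p of 0.05. This was Dnmt3b with Tet2 (r = 0.78, permutation p = 0.00107, adjusted over 36 pairs 0.0385, n = 18), for which Spearman's rho was 0.77 (permutation p = 0.00175, adjusted 0.0630). Without the 2 rats farthest from the median of Dnmt3b (control rat 5 and withdrawal rat 6), r was 0.67.

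Dnmt3a with Tet3 had an equally high r of 0.78 (rho 0.57, permutation p = 0.0546 and 0.0202, adjusted 0.450 and 0.162), which was 0.36 without withdrawal rat 1 (rho 0.50). Dnmt3a with Tet2 had r = 0.76 (rho 0.54, permutation p = 0.00832 and 0.0424, adjusted 0.150 and 0.255), which was 0.54 without that rat. Other pairs had a higher r without it. Dnmt1 with Tet2 had r = 0.35 (rho 0.45, permutation p = 0.114 and 0.0606, adjusted 0.454 and 0.312) and 0.64 without that rat (rho 0.62), and Dnmt1 with Dnmt3a had r = 0.10 and 0.39. Dnmt1 and Uhrf1, whose promoter letters are printed above, had r = 0.00031 (rho 0.018, permutation p = 0.999 and 0.952, n = 18), with r = 0.16 without the 2 rats farthest from the median of Dnmt1.

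**Figure D4:**
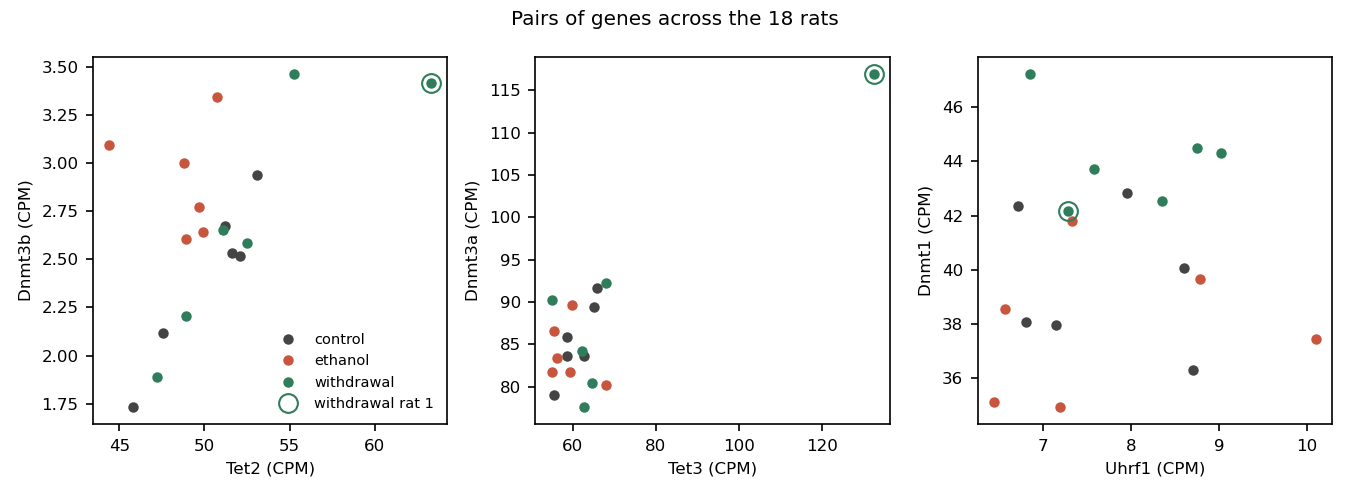
Levels (CPM) of Dnmt3b against Tet2, Dnmt3a against Tet3 and Dnmt1 against Uhrf1, 1 point per rat, coloured by group and with withdrawal rat 1 circled. Dnmt3b with Tet2 has r = 0.78 after subtraction of group means, the high r of Dnmt3a with Tet3 comes with the circled rat, and r of Dnmt1 with Uhrf1 is 0.00031.

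The gene whose level followed each member most closely across the 18 rats, among 13968 named genes of at least 1 CPM on average, was Stag1 for Dnmt1 (r = 0.79), Jarid2 for Dnmt3a (0.90) and Fblim1 for Dnmt3b (0.89). It was Ago3 for Tet1 (0.92), Efr3a for Tet2 (0.91) and Itpkc for Tet3 (0.97). It was Daxx for Mbd1 (0.80), Pdia3 for Mbd2 (0.88) and Syk for Uhrf1 (0.86). Each r is the highest of the 13968 searched and is a description over these 18 rats, whose library depth and tissue composition enter both levels. Without withdrawal rat 1, r was 0.77 for Jarid2, 0.84 for Efr3a and 0.90 for Itpkc.

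Genes that work beside the 9 were read from the same fit, and the 5 called in it were all higher in withdrawal than in control. Over all genes tested, 5.41% were called in that comparison (2.85% higher) and 1.06% had groups that did not overlap. Of 10 tested genes of the wider methyltransferase and maintenance machinery, 2 rose and none fell. Trim28, a corepressor that keeps imprints and transposons methylated, had 130 to 142 CPM in withdrawal (median 137) and 121 to 126 in control rats (median 125), with no overlap (log2 fold change 0.14, q = 0.0658 by limma-voom). Usp7, a deubiquitinase that stabilises Uhrf1 and Dnmt1, had 212 to 263 CPM in withdrawal (median 230.2) and 201 to 214 in control rats (median 208), which overlapped (0.14, q = 0.0855 by limma-voom).

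Of 13 tested genes for the steps after TET oxidation and for proposed active demethylation, 1 rose. Gadd45g, a stress-induced protein proposed to promote demethylation, had 8.32 to 17.3 CPM in withdrawal (median 9.44) and 5.36 to 7.47 in control rats (median 6.59), without overlap. Its log2 fold change was 0.70 (SE 0.16, q = 0.0392 by limma-voom). Ethanol rats had 8.27 to 12.5 CPM (median 8.55), also above every control rat (log2 fold change 0.45, q = 0.312 by limma-voom). Tdg, the glycosylase that excises the oxidised base, had a log2 fold change of 0.098 (q = 0.296 by limma-voom) between withdrawal and control.

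Of 10 tested TET partners and genes of cofactor supply, 1 rose. This was Idh2, which makes the 2-oxoglutarate that TET enzymes need, with 50.2 to 86.5 CPM in withdrawal (median 60.5) and 53.5 to 61.1 in control rats (median 58.8). The groups overlapped, and the log2 fold change was 0.17 (q = 0.0757 by limma-voom). A two-sided exact permutation test without surrogate variables gave p = 0.539. Ethanol rats had 64.2 to 76.5 CPM of Idh2 (median 67.7), above every control rat (log2 fold change 0.15, q = 0.260 by limma-voom). Of 13 tested genes of the methionine and one-carbon cycle, 1 rose. This was Mat2a, the enzyme that makes the methyl donor S-adenosylmethionine, with 135 to 179 CPM in withdrawal (median 146) and 115 to 140.2 in control rats (median 132), a log2 fold change of 0.21 (q = 0.0744 by limma-voom). Mtr, the methionine synthase, had 20.1 to 22.9 CPM in withdrawal and 16.0 to 19.4 in ethanol rats, without overlap (log2 fold change 0.21, q = 0.136 by limma-voom).

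In the same fit, none of the other 7 methyl-CpG binding proteins and none of the 12 NuRD and Mbd1 partners passed the threshold. The lowest q in these lists were those of Mbd5 (log2 fold change -0.13, q = 0.104) and Mbd3 (0.13, q = 0.112), and of Mta1 (0.087, q = 0.121) and Hdac2 (0.11, q = 0.177 by limma-voom). Mbd5 was called, as lower in withdrawal, with 6 of 14 other settings, among them DESeq2 (q = 0.0510) and edgeR (q = 0.0991). Of all 6 lists, no gene was called between ethanol and control or between withdrawal and ethanol. The 5 calls depended on single rats and on the settings. When each of the 18 rats was left out in turn, Gadd45g was called 17 times, Idh2 13, Mat2a 11, Trim28 9 and Usp7 8 times. All 5 calls were lost without withdrawal rat 6 (q from 0.183 for Gadd45g to 0.339 for Idh2, limma-voom), where 23 genes were called in all and the log2 fold changes were 0.63 for Gadd45g, 0.20 for Mat2a, 0.15 for Usp7, 0.14 for Trim28 and 0.10 for Idh2. The calls were lost for Usp7, Trim28 and Mat2a also without withdrawal rat 1 (q = 0.175, 0.130 and 0.171), and for none of the 5 without withdrawal rat 5. Of 14 other settings, Gadd45g was called in 12, Trim28 in 10, Idh2 and Mat2a in 9 and Usp7 in 8, and all 5 calls were lost with no or 1 surrogate variable. Without surrogate variables the log2 fold changes were 0.66 for Gadd45g, 0.20 for Mat2a, 0.15 for Usp7, 0.14 for Trim28 and 0.094 for Idh2.

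**Figure D5:**
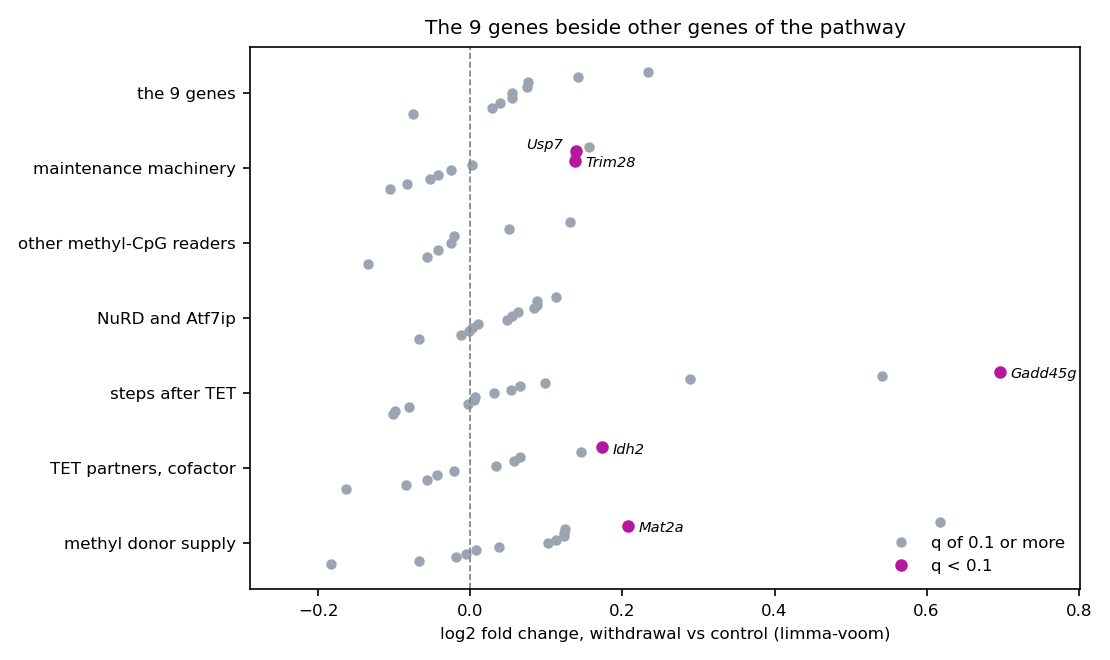
Fitted log2 fold change between withdrawal and control (limma-voom) of the 9 genes and of 6 lists of genes that work beside them, 1 point per gene, with those at q < 0.1 coloured and named. The 5 named genes are all higher in withdrawal, and none of the 9 genes passes.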

How the data were processed

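The authors aligned paired-end, strand-specific mRNA reads with STAR 2.5.2a to Rnor_6.0 and deposited, for each rat, unnormalized counts from featureCounts 1.5.0, per the file headers without multi-mapping reads. Reads of near-identical copies are thus lost. Group and replicate came from the sample labels, and no 2 rats of a group had counts alike within sampling noise. Symbols came from RefSeq gene IDs (29322 of 38445 matched). The members, lists and tests were chosen with earlier results of these data known.

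Counts were TMM-normalized (edgeR 4.0.16), and genes above 0.5 CPM in at least 1 rat entered 1 limma-voom model of 18 rats (limma 3.58.1, R 4.3.3) with 3 surrogate variables (sva 3.50.0, log2 CPM with prior count 2). The 2 settings that the study's text does not give, the number of surrogate variables and of rats above the cutoff, followed earlier processing of these data. Benjamini-Hochberg adjustment within a comparison gave q, called under 0.1. Differences of mean log2 CPM were tested by two-sided exact permutation, and correlations with 100000 permutations of rats within groups. Total counts of at least 30873228 per rat set the counting error. Permutation p-values describe the spread between these animals, and limma-voom values describe the spread left after the 3 surrogate variables. The named genes were the 9 members, genes of 6 lists at q < 0.1 (or the 2 with the lowest q in a list without any) and, for each member, the gene with the most similar pattern. Tdg, Pcna, Mtr and marker genes were named after their values were seen. The fit was tested on simulated data. Alternatives were other numbers of surrogate variables, DESeq2 1.42.0 and edgeR, weights for sample quality, RLE and upper-quartile scaling, a stricter filter or none, a threshold of 0.05, a replicate block, 2-group models and leaving out each rat. Promoter windows came from RefSeq (GRCr8), whose coordinates were not mixed with those of Rnor_6.0. Python 3.11.15 with scipy 1.17.1 and matplotlib 3.10.9 was used for the permutation tests and plots.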

Additional observations from a re-analysis of the deposited data

Results flagged for a closer look

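In 6 of 54 groups of 6 rats, over the 9 genes and the 9 further genes named from the lists, 1 rat lay far from the others by Dixon's ratio. Chance alone places 1 rat that far out in about 5% of groups. Withdrawal rat 1 had 132.5 CPM of Tet3 (ratio 0.830) and 117 CPM of Dnmt3a (ratio 0.626), with the nearest withdrawal rats at 68.2 and 92.3 CPM. Ethanol rat 5 had 68.0 CPM of Tet3, with the nearest ethanol rat at 59.9 CPM. Ethanol rat 1 had 44.4 CPM of Tet2, below the nearest at 48.8 CPM. Control rat 4 had 43.0 CPM of Mbd2, above the nearest at 39.4 CPM. Control rat 5 had 72.8 CPM of Mbd3, above the nearest at 65.6 CPM.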

How the results depend on the processing

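Bulk tissue, 6 rats a group and index sets that follow the groups limit all values. With the other settings the number of members called was 0 or 1, and Dnmt1 was the gene. Between withdrawal and control it was 1 with DESeq2 and with sample quality weights, and 0 to 1 when 1 rat was left out. It was 1 without withdrawal rat 1 (555 genes in all) and without withdrawal rat 4 (1148), beside 965 genes in the main fit. Between withdrawal and ethanol it was 1 with no, 1 and 5 surrogate variables, with DESeq2 and with sample quality weights. In this comparison 1 and 5 surrogate variables, DESeq2 and quality weights called 1492, 871, 1176 and 1073 genes in all, beside 486 in the main fit. When 1 rat was left out, the number of members called was 0 to 1. It was 1 without ethanol rat 5 (1800 genes in all) and without withdrawal rat 1 (527). The log2 fold change of Dnmt1 stayed between 0.11 and 0.18 against control and between 0.13 and 0.22 against ethanol. Beside the calls on other list genes described above, Mbd3 was called with 2 and Mta1 with 1 of 14 settings, and when 1 rat was left out Mbd5 was called 4, Mbd3 2 and Hdac2 1 of 18 times. The number of exact permutation tests with p under 0.05 was 4, and 2 to 5 when 1 rat was left out. The number of genes called ran from 41 (no surrogate variables) to 1624 (DESeq2) between withdrawal and control, from 9 (no filter) to 473 (DESeq2) between ethanol and control, and from 0 (2-group model) to 1492 (1 surrogate variable) between withdrawal and ethanol. Without single rats it ran from 23 (without withdrawal rat 6) to 1911, from 0 to 258 and from 0 to 1800. Samples with the same replicate number were not treated as pairs in the main fit. In the 3 comparisons, 0, 3 and 1 of 6 such pairs correlated over 0.1. The 3 between ethanol and control had r of 0.19 to 0.33. The study states that rats were pair fed, and its text does not tie this to replicate numbers. The replicate block called 0 members in each comparison and 914, 26 and 1 genes in all, lost the call on Idh2 (q = 0.121) and gained one on Mbd5 (q = 0.0991), and 6 of 12 rats at most correlated best with their own number.

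The signs that changed belonged to values that no fit called, of at most 0.089 on the log2 scale (Uhrf1 between ethanol and control). Between ethanol and control, Dnmt3a (0.00035) was -0.028, -0.024, -0.032, -0.0037 and -0.027 with no, 1, 2, 4 and 5 surrogate variables, -0.0011 with DESeq2, -0.00092 and -0.011 with RLE and upper-quartile scaling, -0.0047 with the stricter filter, -0.011 with quality weights and -0.049 in the 2-group model. Tet3 was -0.051, -0.051, -0.033 and -0.060 with no, 1, 2 and 5 surrogate variables, -0.011 with quality weights and -0.020 in the 2-group model. Tet2 was 0.0010 with edgeR, 0.0045 with the replicate block, 0.0050 without a filter and 0.019 in the 2-group model, where Dnmt1 was 0.0021. With no and 1 surrogate variable, Mbd1 was -0.0020 and -0.0018 and Uhrf1 was -0.0024 and -0.0076. Between withdrawal and control with 5 surrogate variables, Dnmt3a was -0.0045, Mbd1 -0.0041 and Tet1 0.0015. Between withdrawal and ethanol, Mbd1 was -0.0039 and -0.016 with 2 and 5 surrogate variables, -0.0042 with upper-quartile scaling, -0.00030 and -0.0016 with the stricter and no filter and -0.012 with the replicate block. Mbd2 was -0.046 and -0.028 with no and 1 surrogate variable, and Uhrf1 0.070, 0.10 and 0.023 with no, 1 and 5. When 1 rat was left out, the range between ethanol and control was -0.025 to 0.031 for Dnmt3a, -0.019 to 0.040 for Tet2, -0.036 to 0.13 for Tet3 and -0.0060 to 0.13 for Uhrf1. Between withdrawal and control it was -0.0027 to 0.13 for Dnmt3a, -0.0076 to 0.059 for Mbd1 and -0.14 to 0.016 for Tet1. Between withdrawal and ethanol it was -0.047 to 0.036 for Mbd1, -0.020 to 0.045 for Mbd2 and -0.073 to 0.086 for Uhrf1. The causes were not tested.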
